A study of Mus musculus with 22 samples.

Results

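Interferon-stimulated genes were followed in mouse embryonic fibroblasts (MEFs), primary cells grown from mouse embryos, during serial passage. The 43 genes are a list of well-known interferon targets, found by symbol among the 55401 rows of the count table. MEFs of C57BL/6 mice were prepared from mid-gestation embryos without head and viscera and cultured at atmospheric oxygen. In the S6K1 set there were 4 libraries of early wild-type (WT) MEFs (passage 3), 4 of late WT MEFs (passage 8) and 3 of late S6K1 knockout (KO) MEFs (passage 8). In the S6K1/S6K2 set there were 4 libraries of early WT MEFs (passage 3), 4 of late WT MEFs (passage 8) and 3 of late S6K1/S6K2 double knockout (DKO) MEFs (passage 8). S6K1 and S6K2 are kinases downstream of mTORC1. S6K1 WT and KO embryos came from heterozygous matings, whereas DKO MEFs and their WT controls did not share mothers, the controls being from WT females at an earlier stage of breeding, so genotype and litter cannot be told apart in that set. No knockout MEFs at passage 3 were among the libraries, and which libraries share a mother or an embryo is not given.

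Type I interferons bind the IFNAR1 and IFNAR2 receptor chains, and the kinases JAK1 and TYK2 then phosphorylate STAT2. Bound to IRF9, STAT2 acts in a transcription factor complex, ISGF3, that binds interferon-stimulated response elements (ISREs) in the promoters of its targets. Interferon-gamma instead acts through GAS elements. The targets encode sensors of foreign nucleic acids, inhibitors of viral replication, and the factors IRF7, IRF9 and STAT2 themselves, and fibroblasts express many of them at a low level without infection.

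The promoters are shown first because the pathway is defined by them. RefSeq promoter windows on the GRCm38.p6 build, from 250 bases before to 50 bases after a start site, were found for 32 of the 43 genes. An ISRE-like motif, GAAANNGAA on either strand, was present in 20 of the 32 genes (62.5%), against 9.76% of the 27025 genes with a window and 8.56% of all 32851 windows, all of 300 bases. A GAS-like motif, TTCNNNGAA, which reads the same on both strands, was present in 8 of the 32 genes (25%), against 9.55% of all genes and 8.3% of all windows. These are matches of letters and were not tested as binding sites. Matches to the ISRE-like motif could overlap each other, as in Isg15, where 3 of them lay in 1 run.

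The 160 bases upstream of the start are printed for genes on which the passage comparisons turn. Capitals mark ISRE-like matches, and each sequence reads 5′ to 3′ on the strand of its gene. The stretch of Ifit1, an inhibitor of viral RNA translation, at chr19:34640729-34640888 (plus strand), held 3 matches, and that of Isg15, a ubiquitin-like modifier, at chr4:156200819-156200978 (minus strand), also held 3. Rsad2 (viperin), at chr12:26456453-26456612 (minus strand), and the guanylate-binding protein gene Gbp2, at chr3:142620503-142620662 (plus strand), held 1 each, as did the immunity-related GTPase gene Igtp, at chr11:58199396-58199555 (plus strand). Gbp3, at chr3:142559884-142560043 (plus strand), held 2 in the first of its 2 windows. Irf7, the interferon-induced factor that amplifies interferon production, at chr7:141266425-141266584 (minus strand), and Stat2, at chr10:128270338-128270497 (plus strand), are shown because neither held a match in this stretch, although Stat2 had 1 at position -221.
Ifit1: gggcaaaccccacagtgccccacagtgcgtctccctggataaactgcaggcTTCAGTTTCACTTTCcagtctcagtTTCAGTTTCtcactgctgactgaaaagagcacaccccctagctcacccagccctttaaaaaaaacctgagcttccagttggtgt
Isg15: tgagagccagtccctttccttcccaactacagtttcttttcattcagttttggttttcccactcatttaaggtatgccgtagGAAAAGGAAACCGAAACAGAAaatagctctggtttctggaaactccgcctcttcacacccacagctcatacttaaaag
Rsad2: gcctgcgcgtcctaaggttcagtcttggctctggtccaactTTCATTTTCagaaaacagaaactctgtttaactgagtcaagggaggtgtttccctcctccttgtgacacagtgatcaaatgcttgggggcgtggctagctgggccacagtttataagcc
Gbp2: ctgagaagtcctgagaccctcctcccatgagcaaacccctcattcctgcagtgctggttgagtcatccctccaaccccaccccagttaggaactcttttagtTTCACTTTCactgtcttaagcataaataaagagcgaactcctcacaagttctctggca
Igtp: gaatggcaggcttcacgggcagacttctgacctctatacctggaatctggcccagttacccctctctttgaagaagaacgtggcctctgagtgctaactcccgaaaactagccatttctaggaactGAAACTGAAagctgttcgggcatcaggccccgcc
Gbp3: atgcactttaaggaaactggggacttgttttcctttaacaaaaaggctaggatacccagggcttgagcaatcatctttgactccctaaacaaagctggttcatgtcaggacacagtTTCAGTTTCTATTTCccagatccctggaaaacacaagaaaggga
Irf7: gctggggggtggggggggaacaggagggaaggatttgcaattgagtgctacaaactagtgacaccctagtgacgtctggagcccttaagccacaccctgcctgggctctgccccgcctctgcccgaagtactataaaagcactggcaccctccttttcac
Stat2: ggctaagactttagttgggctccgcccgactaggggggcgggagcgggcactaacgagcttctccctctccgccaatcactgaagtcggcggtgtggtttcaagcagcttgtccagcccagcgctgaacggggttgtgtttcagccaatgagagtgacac

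**Figure D1:**
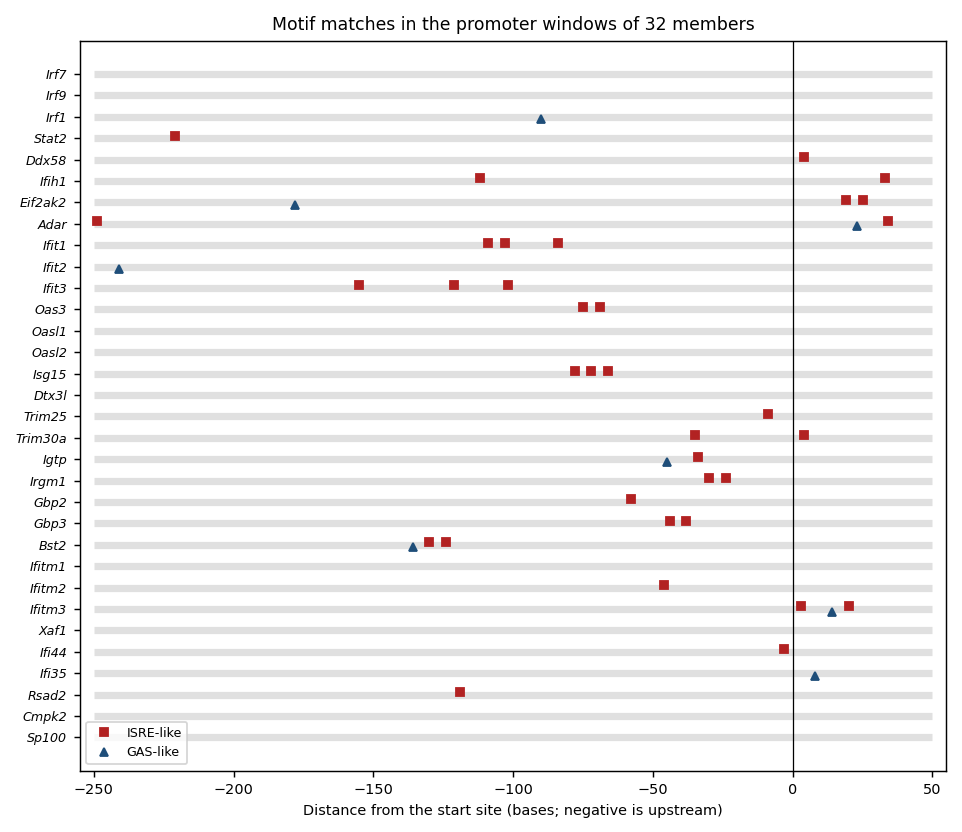
Positions of ISRE-like (squares) and GAS-like (triangles) matches in the RefSeq promoter windows of 32 interferon-stimulated genes, as distance in bases from the start site on the x axis and 1 gene per row (grey bars span the windows). ISRE-like matches are seen in 20 genes and GAS-like matches in 8.

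Total counts per library were 10742454 to 17314832, and 3 counts, used as the floor of detection, corresponded to 0.166 to 0.283 counts per 1000000 counts (CPM). Levels are given in CPM with library sizes scaled by the TMM method, and replicates are listed in the order of their numbers, which pair nothing across groups. Rps6kb1, the gene of S6K1, had 63.7 ± 8.78 CPM (mean ± SD) in late WT and 20.1 ± 5.15 CPM in late KO MEFs, and 73.5 ± 10.8 CPM in late WT and 23.6 ± 4.296 CPM in late DKO MEFs. Rps6kb2, the gene of S6K2, had 13.1 ± 2.56 CPM in late WT and 0.804 ± 0.484 CPM in late DKO MEFs. The summed level of 9 fibroblast markers was 15100 to 35000 CPM over all libraries. That of 19 macrophage markers, none of which was at 0 throughout a group, was 529.2 to 1167 CPM in early WT, 5674 to 11810 in late WT and 3821 to 5168 in late KO MEFs of the S6K1 set. The S6K1/S6K2 set had 631.7 to 2107 CPM in early WT, 7779 to 13380 in late WT and 983.7 to 3574 in late DKO MEFs. The 4 lymphocyte markers summed to 0.1855 CPM at most.

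The interferon-stimulated genes moved together between libraries of the same group. For each of the 39 genes with a mean of at least 1 CPM, deviations of log2 CPM from the group means were correlated over the 22 libraries. The 741 pairs of genes had a median r of 0.531 (range -0.572 to 0.935), and 91.8% of the pairs were above 0. These points share library, depth and scaling, and the values are a description. Closest to the mean of the other genes were Oasl2, a 2′-5′-oligoadenylate synthetase-like gene (r = 0.96), Xaf1, an apoptosis factor (0.935), Isg15 (0.913) and Usp18, the protease that removes ISG15 and dampens receptor signalling (0.913). Farthest from it were Ifitm1, a membrane protein that hinders viral entry (-0.0277), Trim25, the ubiquitin ligase of the RIG-I pathway (0.0524), and Irgm1, an immunity-related GTPase gene (0.126). Deviations of the mean of the genes from its group means had r = -0.0366 with those of the summed macrophage markers. With those of the total count r was 0.098, both over the same 22 libraries on log2 scales. Differences between groups were taken out of these values, so they do not describe the comparisons of passage or genotype.

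Single libraries were high or low across most of the list. In early WT MEFs of the S6K1 set, replicate 2 had the highest level of its group in 27 of the 39 genes and replicate 4 the lowest in 30. In the S6K1/S6K2 set, early WT replicate 1 was highest in 26 and replicate 4 lowest in 33. Among late WT MEFs, replicate 1 was highest in 23 genes and replicate 3 lowest in 23 in the S6K1 set, and replicate 1 was highest in 28 and replicate 3 lowest in 23 in the S6K1/S6K2 set. In late KO MEFs replicate 2 was highest in 32 genes and replicate 3 lowest in 35. Late DKO MEFs were less uniform, with replicate 2 highest in 18 genes and replicate 3 in 15. The SD between libraries of a group of the mean over the genes was 0.383 on the log2 scale. The genes are therefore not independent measures of a condition, and counts of genes are read beside the libraries on which they rest.

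**Figure D2:**
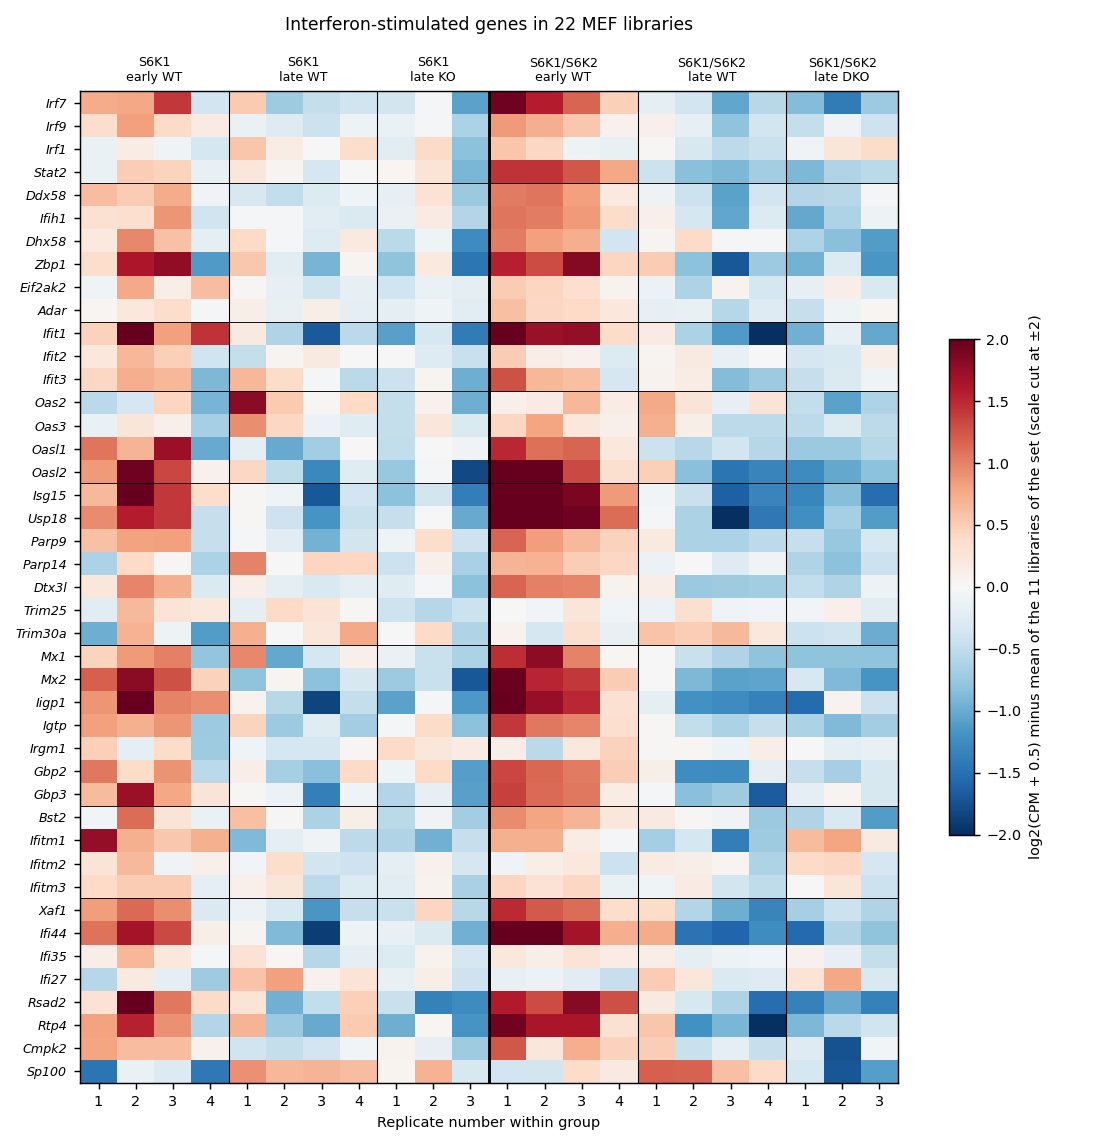
Level of each of the 43 genes (rows, ordered by role) in each of the 22 libraries (columns, by group and replicate number), as log2(CPM + 0.5) minus the mean of the 11 libraries of the set, with the colour scale ending at ±2. Red columns in the early WT groups and pale or blue columns in the late groups run across most rows, with S6K1 set early WT replicate 4 and S6K1/S6K2 set early WT replicate 4 paler than the other early libraries.

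To ask whether these genes differ between passages, early and late WT MEFs were compared within each set. Of the 43 genes, 42 were abundant enough to be tested in both sets, and Oas3 was not. Differences were tested with the quasi-likelihood F test of edgeR, and P values were adjusted over all genes by the Benjamini-Hochberg method (FDR), and a gene is said to have risen or fallen where its FDR was below 5%. In the S6K1/S6K2 set 28 of the 42 genes fell and 0 rose, while 4.89% of all 14365 genes tested fell and 8.28% rose. The 28 include Mx1 and Oasl1, which held at most 6 and 2 counts in late WT MEFs. These 2 could be tested only through their early WT levels, so their falls add no support. Of the genes that did not pass, 2 had an unadjusted P below 0.05 and a higher level, and DESeq2 called 1 gene higher, Sp100. The median difference was -1.22 on the log2 scale, against 0.013 over all genes. In 21 genes all 4 late libraries lay below all 4 early ones, as did 10.5% of all genes. Mx1 and Oasl1 are among these 21. In the S6K1 set 12 of the 42 genes fell and 2 rose, while 5.97% of all 14132 genes fell and 6.96% rose. There the median difference was -0.71, against -0.038 over all genes, and in 10 genes all late libraries lay below all early ones, against 9.1% of all genes. The summed macrophage markers were higher, without overlap, and the summed fibroblast markers lower in late than in early WT MEFs of both sets. Not all fibroblast markers went that way. The means of Col1a1, Col1a2 and Col3a1 were lower in both sets. Mean Dcn went from 157 to 467 CPM in the S6K1 set and from 124 to 253 CPM in the S6K1/S6K2 set. Mean Vim went from 5915 to 6075 and from 6393 to 7033 CPM. The part of either sum in the differences of the interferon-stimulated genes was not tested. In bulk RNA, fewer cells of a type and less RNA per cell cannot be told apart. Y-linked transcripts, which mark male embryos, were present in 2 of 4 early and 1 of 4 late WT libraries of the S6K1 set. In the S6K1/S6K2 set they were present in 2 of 4 early and 3 of 4 late WT libraries. With their level as a covariate 15 genes fell in the S6K1 set and 28 in the S6K1/S6K2 set.

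The genes of the factors that drive the pathway fell in the S6K1/S6K2 set, apart from Irf1. Stat2 (ENSMUSG00000040033) had 75.2, 74.7, 65.1 and 46.9 CPM in early WT and 20.03, 15.01, 14.3 and 16.6 CPM in late WT MEFs of that set. The groups were far apart, and Stat2 had the smallest FDR of the list (log2 -1.94 ± 0.17, FDR 7.4e-05). In the S6K1 set Stat2 had 29.5, 46.1, 44.5 and 29.3 CPM in early WT and 38.4, 33.7, 25.6 and 32.9 CPM in late WT MEFs, which overlapped (log2 -0.20 ± 0.25, FDR 0.656). Irf7 (ENSMUSG00000025498) had 22.9, 17.6, 13.2 and 7.99 CPM in early WT and 4.79, 4.15, 2.46 and 3.63 CPM in late WT MEFs of the S6K1/S6K2 set, where it fell without overlap (log2 -1.99 ± 0.32, FDR 0.0025). In the S6K1 set Irf7 had 13.6, 14.00, 22.03 and 6.002 CPM in early and 11.7, 4.71, 5.57 and 5.93 CPM in late WT MEFs, and early replicate 4 lay within the late range (log2 -1.002 ± 0.39, FDR 0.118). Irf9 (ENSMUSG00000002325), the DNA-binding partner of STAT2, fell in both sets. It had 43.7, 60.6, 44.6 and 38.1 CPM in early and 31.03, 28.4, 25.00 and 31.8 CPM in late WT MEFs of the S6K1 set, with no overlap (log2 -0.69 ± 0.18, FDR 0.0245). In the S6K1/S6K2 set it had 49.02, 44.9, 39.7 and 28.6 CPM in early and 29.01, 24.2, 15.3 and 20.8 CPM in late WT MEFs, with 1 late library just above the lowest early one (log2 -0.82 ± 0.21, FDR 0.023). Irf1 (ENSMUSG00000018899), a factor induced mainly by interferon-gamma, did not pass in either set. Its levels were 18.8, 22.8, 19.4 and 16.03 CPM in early and 30.5, 22.9, 20.8 and 26.5 CPM in late WT MEFs of the S6K1 set (log2 0.38 ± 0.23, FDR 0.316), and 25.7, 23.2, 16.1 and 15.5 CPM in early and 17.7, 13.7, 11.9 and 12.5 CPM in late WT MEFs in the S6K1/S6K2 set (log2 -0.49 ± 0.19, FDR 0.112).

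Among 6 sensors and effectors of nucleic acid recognition, 5 fell in the S6K1/S6K2 set and 1 in the S6K1 set. Over all genes 4.89% fell in the former and 5.97% in the latter. Ddx58 (ENSMUSG00000040296) encodes RIG-I, a cytoplasmic sensor of viral RNA, and fell in both. It had 69.5, 64.4, 75.7 and 42.96 CPM in early and 35.9, 31.8, 37.1 and 42.5 CPM in late WT MEFs of the S6K1 set, where the highest late library lay just below the lowest early one (log2 -0.78 ± 0.22, FDR 0.0359). In the S6K1/S6K2 set it had 88.6, 90.7, 76.2 and 49.1 CPM in early and 39.8, 31.7, 20 and 32.7 CPM in late WT MEFs, again with no overlap (log2 -1.25 ± 0.23, FDR 0.00537). The other 4 that fell in the S6K1/S6K2 set were Ifih1, which encodes the RNA sensor MDA5 (log2 -1.19 ± 0.26, FDR 0.0127), Zbp1, a sensor of Z-form nucleic acids (log2 -2.19 ± 0.61, FDR 0.037), Adar, an RNA-editing enzyme (log2 -0.65 ± 0.14, FDR 0.0111), and Eif2ak2, the RNA-activated kinase PKR (log2 -0.54 ± 0.16, FDR 0.0479). Dhx58, the regulator LGP2, was at 6.401 ± 2.44 CPM in early and 4.28 ± 0.665 CPM in late WT MEFs and did not pass (log2 -0.54 ± 0.30, FDR 0.247).

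The IFIT genes, whose products bind foreign RNA, were unequal. Ifit1 (ENSMUSG00000034459), with its 3 ISRE-like matches, had 80.3, 385, 103 and 159 CPM in early and 65.7, 38.2, 17.7 and 39.9 CPM in late WT MEFs of the S6K1 set, and fell without overlap (log2 -2.19 ± 0.52, FDR 0.0158). Within the S6K1/S6K2 set it had 121, 95.96, 99.1 and 37.2 CPM in early and 32.4, 18.5, 12.9 and 6.05 CPM in late WT MEFs, and also fell without overlap (log2 -2.29 ± 0.48, FDR 0.0119). Early replicate 2 of the S6K1 set was far above the other libraries of its group, and the fall there was -1.51 on the log2 scale without it. Ifit3 (ENSMUSG00000074896), which also has 3 matches, had 36.2, 44.7, 42.8 and 14.2 CPM in early and 43.01, 34.9, 26.04 and 18.4 CPM in late WT MEFs of the S6K1 set, with full overlap (log2 -0.17 ± 0.35, FDR 0.794). Within the S6K1/S6K2 set it had 57.8, 37.8, 36.02 and 18.6 CPM in early and 24.9, 26.1, 12.8 and 14.00 CPM in late WT MEFs and missed the threshold (log2 -0.90 ± 0.32, FDR 0.0808). Ifit2 had 25.5 ± 5.74 CPM in early and 23.5 ± 2.34 CPM in late WT MEFs of that set (log2 -0.07 ± 0.17, FDR 0.808). With edgeR Ifit1 thus passed in both sets and Ifit2 and Ifit3 in neither, while DESeq2 also called Ifit3 lower in the S6K1/S6K2 set.

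ISG15 is conjugated to proteins like ubiquitin, and its gene fell in both sets together with that of its protease. Isg15 (ENSMUSG00000035692) had 105, 331, 179 and 85.3 CPM in early and 68.5, 63.5, 20.5 and 51.1 CPM in late WT MEFs of the S6K1 set (log2 -1.79 ± 0.46, FDR 0.0234). Within the S6K1/S6K2 set it had 163, 149, 125 and 60.5 CPM in early and 32.2, 24.4, 10.5 and 13.2 CPM in late WT MEFs (log2 -2.59 ± 0.39, FDR 0.00248). No late library reached an early one in either set. Usp18 (ENSMUSG00000030107) had 31.4, 48.4, 43.3 and 11.5 CPM in early and 16.3, 11.9, 6.79 and 11.6 CPM in late WT MEFs in the S6K1 set, where early replicate 4 lay within the late range (log2 -1.53 ± 0.40, FDR 0.0255). Within the S6K1/S6K2 set it had 39.9, 35.6, 32.6 and 18.2 CPM in early and 7.83, 5.05, 1.304 and 2.67 CPM in late WT MEFs, with no overlap (log2 -2.85 ± 0.44, FDR 0.00265). Of the ADP-ribosylation and ubiquitin enzymes, Parp9 (log2 -1.14 ± 0.21, FDR 0.00526), its ligase partner Dtx3l (log2 -1.34 ± 0.28, FDR 0.00936) and Parp14 (log2 -0.67 ± 0.15, FDR 0.0146) fell in the S6K1/S6K2 set, while Trim25 and Trim30a did not pass in either set. Parp14 was at 10.7 ± 3.94 CPM in early and 17.1 ± 5.15 CPM in late WT MEFs of the S6K1 set, and Trim30a, a negative regulator of inflammatory signalling, was at 10.2 ± 6.53 and 16.3 ± 4.16 CPM there.

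Of the 7 genes for interferon-induced GTPases, which restrict viruses and intracellular microbes, 6 fell in the S6K1/S6K2 set and 3 in the S6K1 set. Over all genes 4.89% fell in the former and 5.97% in the latter. The 6 include Mx1, which was near the floor. Iigp1 (ENSMUSG00000054072), an immunity-related GTPase gene, had 7.79, 20.6, 8.42 and 8.06 CPM in early and 4.200, 2.55, 0.754 and 2.71 CPM in late WT MEFs of the S6K1 set (log2 -2.15 ± 0.51, FDR 0.0167). Within the S6K1/S6K2 set it had 14.3, 9.26, 7.82 and 3.104 CPM in early and 2.06, 0.761, 0.725 and 0.636 CPM in late WT MEFs (log2 -2.97 ± 0.57, FDR 0.00614). It fell without overlap in both. Mx2, a dynamin-like antiviral GTPase gene, was at 4.54 ± 1.82 CPM in early and 1.06 ± 0.468 CPM in late WT MEFs of the S6K1 set (log2 -2.10 ± 0.49, FDR 0.0154) and at 4.85 ± 2.005 and 0.723 ± 0.492 CPM in the S6K1/S6K2 set (log2 -2.67 ± 0.49, FDR 0.00477). Gbp3 fell in the S6K1 set (log2 -1.33 ± 0.39, FDR 0.0443) and in the S6K1/S6K2 set (log2 -1.79 ± 0.36, FDR 0.00855). Gbp2 (ENSMUSG00000028270) had 28.2, 24.5, 22.7 and 15.4 CPM in early and 11.8, 4.29, 4.203 and 9.42 CPM in late WT MEFs of the S6K1/S6K2 set and fell (log2 -1.56 ± 0.32, FDR 0.00849). In the S6K1 set it had 29.4, 18.1, 26.2 and 9.35 CPM in early and 15.2, 8.54, 7.54 and 18.1 CPM in late WT MEFs, which overlapped (log2 -0.75 ± 0.40, FDR 0.252). Igtp fell in the S6K1/S6K2 set (log2 -1.40 ± 0.24, FDR 0.00313), and Irgm1 passed in neither. Mx1 (ENSMUSG00000000386) was near the floor, with 0.883, 1.33, 1.53 and 0.0858 CPM in early and 1.48, 0, 0.29 and 0.593 CPM in late WT MEFs of the S6K1 set, and 1.93, 2.52, 1.24 and 0.396 CPM in early and 0.364, 0.138, 0.0725 and 0 CPM in late WT MEFs in the S6K1/S6K2 set. Its FDR was 0.627 and 0.0269, and no fold is given at such counts.

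The oligoadenylate synthetase family, some members of which make the activator of RNase L, held low and moderate genes. Oasl2 (ENSMUSG00000029561) had 21.2, 45.5, 29.6 and 12.2 CPM in early and 15.4, 7.897, 4.41 and 9.65 CPM in late WT MEFs of the S6K1 set and narrowly missed the threshold (log2 -1.55 ± 0.48, FDR 0.0528). Among WT MEFs of the S6K1/S6K2 set it had 33.6, 27.98, 15.3 and 7.46 CPM in early and 8.38, 3.04, 1.81 and 2.04 CPM in late WT MEFs and fell, with late replicate 1 above early replicate 4 (log2 -2.41 ± 0.54, FDR 0.0153). Oasl1 had 1.87, 1.29, 1.37 and 0.462 CPM in early and 0.121, 0.0692, 0.145 and 0.0636 CPM in late WT MEFs of the S6K1/S6K2 set, all late libraries being under the floor (FDR 0.00384). Oas2 had 0.387, 0.516, 1.24 and 0.172 CPM in early and 3.97, 1.36, 0.812 and 1.19 CPM in late WT MEFs of the S6K1 set and did not pass (log2 1.61 ± 0.68, FDR 0.145). It was at or under the floor in 5 of the 22 libraries, so its folds are uncertain. Oas3, left out of the tests within sets, was at 0.254 and 0.493 CPM in the S6K1 set and 0.445 and 0.236 CPM in the S6K1/S6K2 set.

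The membrane proteins BST2 (tetherin) and the IFITM family hold virus particles at the cell surface or hinder their entry. Bst2 (ENSMUSG00000046718) had 287, 259, 239 and 175 CPM in early and 169, 152, 142 and 89.6 CPM in late WT MEFs of the S6K1/S6K2 set and fell, with the highest late library just under the lowest early one (log2 -0.75 ± 0.23, FDR 0.0465). Within the S6K1 set it had 211, 476, 262 and 199.9 CPM in early and 332, 222, 141 and 238 CPM in late WT MEFs, with wide overlap (log2 -0.31 ± 0.31, FDR 0.57). Ifitm1 fell in both sets, from 3.41 ± 1.75 to 0.98 ± 0.356 CPM in the S6K1 set (log2 -1.78 ± 0.41, FDR 0.0142) and from 2.003 ± 0.655 to 0.623 ± 0.309 CPM in the S6K1/S6K2 set (log2 -1.63 ± 0.43, FDR 0.0277). Ifitm3 (ENSMUSG00000025492) had 479.5, 519, 519.8 and 319.8 CPM in early and 392, 430.4, 252 and 299.8 CPM in late WT MEFs of the S6K1 set (log2 -0.42 ± 0.22, FDR 0.242). Among WT MEFs of the S6K1/S6K2 set it had 533, 484, 528 and 361 CPM in early and 374, 443, 308 and 279.9 CPM in late WT MEFs (log2 -0.40 ± 0.19, FDR 0.177). Ifitm3 overlapped between passages in both sets, and neither it nor Ifitm2 passed.

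Of the 8 other induced genes, 4 fell in the S6K1/S6K2 set, and 3 fell and 2 rose in the S6K1 set. Over all genes 4.89% fell in the S6K1/S6K2 set, and 5.97% fell and 6.96% rose in the S6K1 set. Xaf1 (ENSMUSG00000040483) fell in both sets. It had 23.7, 29.3, 25.4 and 10.6 CPM in early and 12.1, 10.5, 5.57 and 9.31 CPM in late WT MEFs of the S6K1 set (log2 -1.25 ± 0.34, FDR 0.0303), and 23.6, 19.3, 17.9 and 10.4 CPM in early and 10.4, 5.19, 3.84 and 2.93 CPM in late WT MEFs in the S6K1/S6K2 set (log2 -1.62 ± 0.36, FDR 0.0126). Early replicate 4 lay within the late range in both sets. Rsad2 (ENSMUSG00000020641), whose product makes a chain terminator of viral RNA synthesis, had 7.08, 5.77, 8.47 and 5.68 CPM in early and 2.37, 1.52, 1.16 and 0.382 CPM in late WT MEFs of the S6K1/S6K2 set and fell without overlap (log2 -2.26 ± 0.41, FDR 0.0045). Within the S6K1 set it had 5.85, 21.01, 10.3 and 6.26 CPM in early and 5.76, 2.15, 3.19 and 6.69 CPM in late WT MEFs (log2 -1.30 ± 0.47, FDR 0.092). Ifi44 fell in the S6K1 set (log2 -1.82 ± 0.46, FDR 0.0233) and in the S6K1/S6K2 set (log2 -2.44 ± 0.62, FDR 0.0263), Rtp4 in the latter (log2 -2.13 ± 0.54, FDR 0.0263) and Cmpk2, a mitochondrial nucleotide kinase gene, in the former (log2 -1.04 ± 0.29, FDR 0.0342). Sp100, a nuclear body component, went the other way. It rose in the S6K1 set from 2.04 ± 1.19 to 6.25 ± 0.666 CPM without overlap (log2 1.6 ± 0.40, FDR 0.0209). Among WT MEFs of the S6K1/S6K2 set it had 2.64 ± 0.83 and 5.37 ± 1.62 CPM, again without overlap, and missed the threshold (log2 1.06 ± 0.38, FDR 0.0799). Ifi35 did not pass in either set, at 45.1 ± 2.17 CPM in early and 38.3 ± 3.55 CPM in late WT MEFs of the S6K1/S6K2 set. Ifi27 (ENSMUSG00000064215), a mitochondrial protein gene, had 73.8, 125, 96.02 and 67.2 CPM in early and 164, 195, 116 and 133 CPM in late WT MEFs of the S6K1 set and rose, just inside the threshold (log2 0.74 ± 0.23, FDR 0.0497). Among WT MEFs of the S6K1/S6K2 set it had 76.1, 77.7, 72.8 and 60.8 CPM in early and 119, 98.7, 68.98 and 70.2 CPM in late WT MEFs, which overlapped (log2 0.36 ± 0.23, FDR 0.313).

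**Figure D3:**
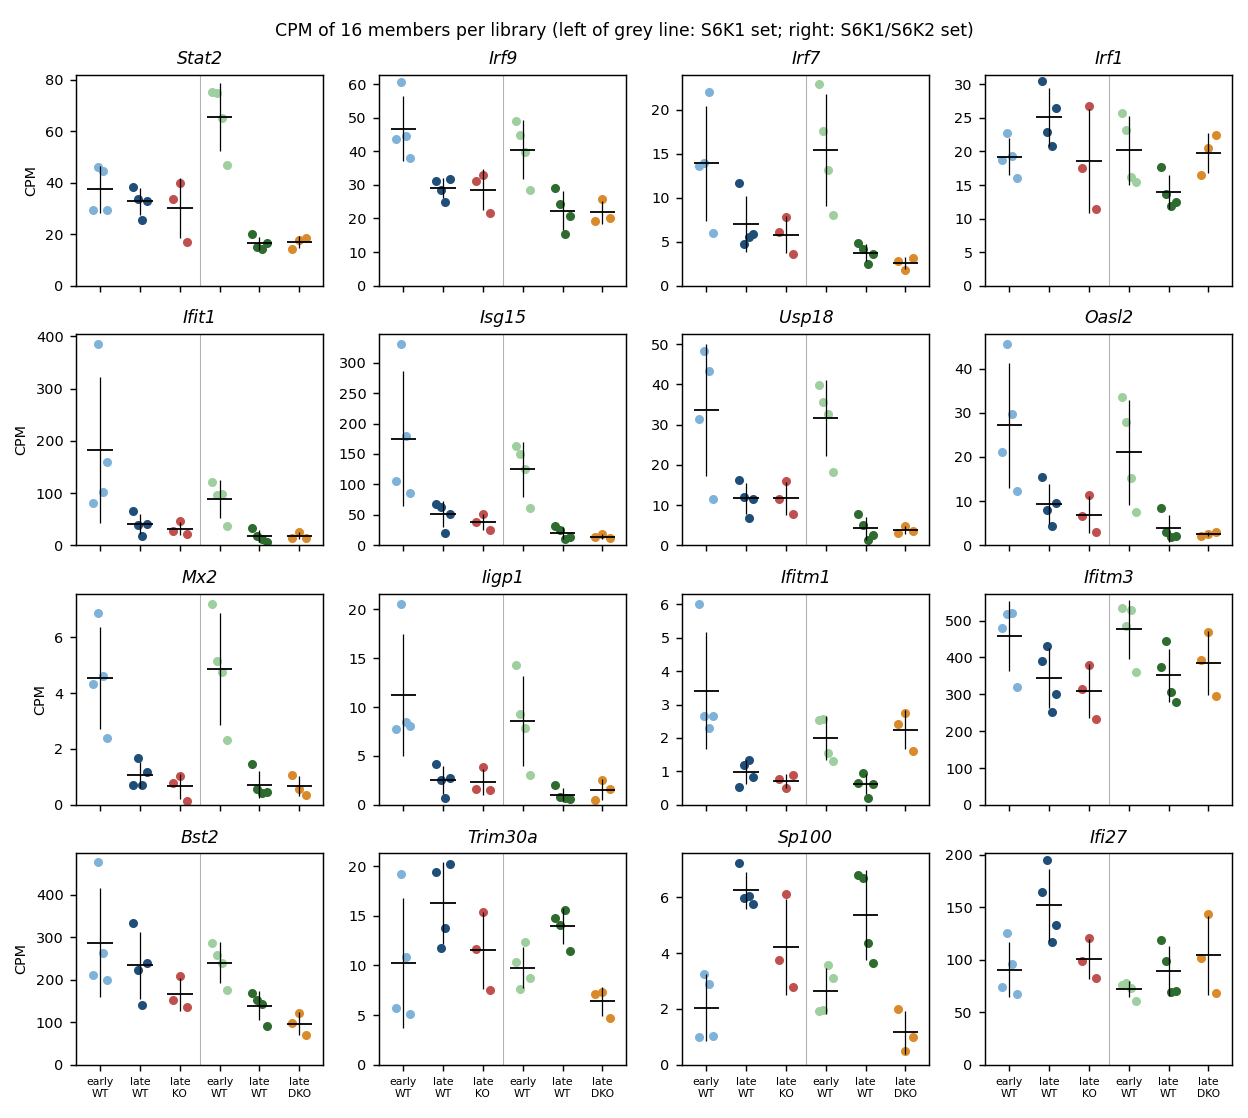
CPM of 16 interferon-stimulated genes in every library (points), by group on the x axis, with the group mean (horizontal bar) and SD (vertical line), n = 4 for early WT and late WT and 3 for late KO and late DKO. Stat2 in the S6K1/S6K2 set lies at 46.9 to 75.2 CPM in early WT and 14.3 to 20 CPM in late WT MEFs.

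In the S6K1 set the calls changed with the library left out. Over all genes, 1223 to 1749 passed in these fits, against 1827 with every library, so calls were lost beyond the list as well. Cmpk2, Ddx58, Gbp3 and Ifi27 were lost even without late KO replicate 1, which is outside the comparison. Without early WT replicate 2, only Ifit1 and Ifitm1 were still called lower, and without early WT replicate 4, 16 genes were called lower and 0 higher. Ifi27 and Gbp3 were each lost in 9 of the 11 fits that left out 1 library, and Cmpk2 in 8, Ddx58 in 7, Xaf1 in 6 and Usp18 in 5. The number lower was 7 without early WT replicate 3, 5 without late WT replicate 2 and 4 without late WT replicate 3. Among WT MEFs of the S6K1/S6K2 set the number lower was 18 without early WT replicate 1 or without early WT replicate 2, and at most 30. Over all genes 885 passed in that set without early WT replicate 1, against 1892 with every library. There Bst2 and Eif2ak2 were each lost in 7 of the 11 fits and Zbp1, which had 2 counts in late WT replicate 3, in 6. In every one of these fits the median over the genes stayed below 0, between -0.876 and -0.509 in the S6K1 set and between -1.4 and -1.07 in the S6K1/S6K2 set.

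The passage comparisons of the sets share no library, so their results can be set side by side. In both sets 11 genes fell, which is 91.7% of the 12 of the S6K1 set and 39.3% of the 28 of the S6K1/S6K2 set, and Cmpk2 fell in the S6K1 set alone. The 11 were Ddx58, Gbp3, Ifi44, Ifit1, Ifitm1, Iigp1, Irf9, Isg15, Mx2, Usp18 and Xaf1. The difference was negative in both sets in 34 of 42 genes and more negative in the S6K1/S6K2 set in 33. The shares over all genes that match these counts were not computed. The genes also varied together within groups (median r 0.531), so the counts do not measure agreement gene by gene. Whether a gene's passage effect differed between the sets was tested as an interaction over all 22 libraries, in which all 43 genes could be tested. Stat2 passed (log2 -1.77 ± 0.32, FDR 0.00623, S6K1/S6K2 set minus S6K1 set), as 1 of 43 genes, against 0.712% of all 14886 genes in either direction. It passed in each of the 22 fits that left out 1 library, with log2 differences between -1.90 and -1.66. Next was Parp14 (log2 -1.37 ± 0.34, FDR 0.0739), which DESeq2 also called. The other genes did not pass with edgeR, so a fall called in a single set is not shown to differ from the other set for them.

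**Figure D4:**
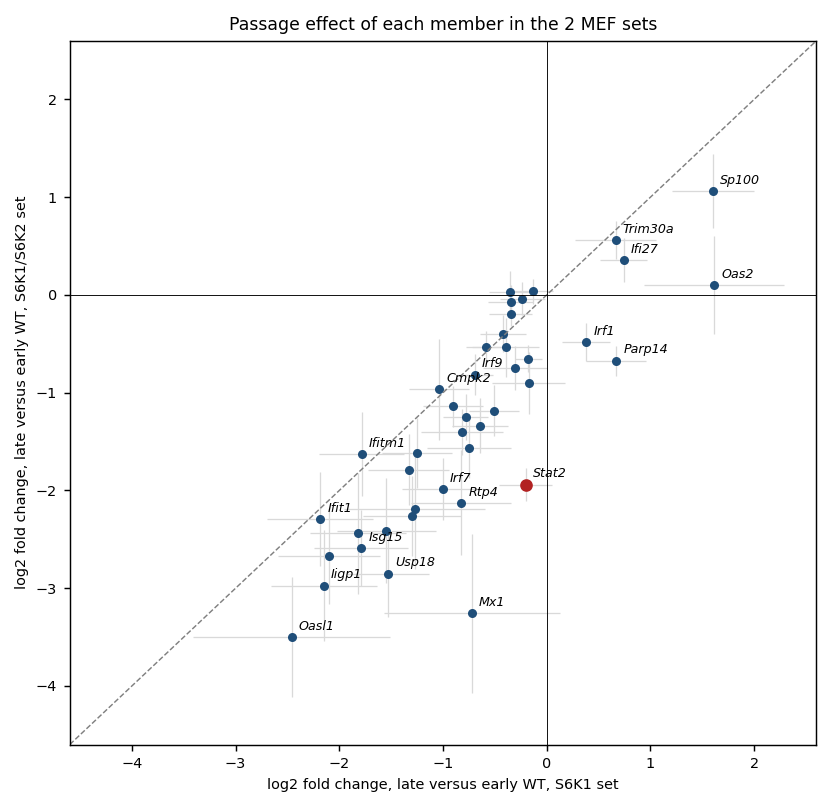
Log2 fold change of late versus early WT MEFs in the S6K1 set (x axis) and the S6K1/S6K2 set (y axis) for the 42 genes tested in both, with standard errors as grey lines and equality as a dashed line. Most genes lie in the lower left, below 0 on both axes, and under the dashed line, and Stat2 (red) is the gene whose difference between the sets passed the test.

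To ask whether S6K1 loss alters these genes at passage 8, late KO MEFs were compared with late WT MEFs. None of the 42 genes tested passed with edgeR or with DESeq2, and 4 had an unadjusted P below 0.05, all lower in KO MEFs, where 10.6% of all genes had such a P in either direction. In this comparison 0.0425% of all genes passed in either direction. The median difference was -0.24 on the log2 scale, against -0.01 over all genes. The macrophage markers were lower too, at 3821 to 5168 CPM in late KO against 5674 to 11810 CPM in late WT MEFs, and their part was not tested. The 3 smallest P values belonged to Trim25, Parp14 and Oas2. Trim25 had 40.4, 60.5, 56.03 and 47.1 CPM in late WT and 34.7, 31.04 and 34 CPM in late KO MEFs, all KO libraries lying below all WT ones, as in 6.21% of all genes (log2 -0.62 ± 0.21, FDR 0.323). Parp14 had 24.3, 11.96, 16.2 and 16.1 CPM in late WT and 8.74, 12.9 and 7.41 CPM in late KO MEFs, with overlap (log2 -0.82 ± 0.32, FDR 0.395), and Oas2 had 3.97, 1.36, 0.812 and 1.19 CPM in late WT and 0.423, 0.866 and 0.151 CPM in late KO MEFs (log2 -1.89 ± 0.76, FDR 0.404). In Oas2 the highest WT library stood apart from the rest, and the KO libraries held 2 to 14 counts, so its fold is uncertain. Isg15 had 37.7, 51.99 and 25.4 CPM, Ifit1 26.99, 46.4 and 21.8 CPM and Usp18 11.5, 15.9 and 7.71 CPM in the 3 KO libraries. Stat2 had 33.7, 39.7 and 17.00 CPM, Irf7 6.06, 7.79 and 3.55 CPM, Irf9 31.1, 33.1 and 21.7 CPM and Irf1 17.6, 26.8 and 11.4 CPM. Replicate 3 was the lowest of the KO libraries in each of these 7 genes. The same was seen for Oasl2 (6.62, 11.3 and 2.95 CPM), Ddx58 (40.03, 55.5 and 26.8 CPM), Bst2 (151, 209 and 134 CPM), Ifit3 (19.9, 27.9 and 13.4 CPM), Gbp2 (13.04, 18.4 and 6.196 CPM), Xaf1 (9.51, 17.7 and 8.69 CPM) and Ifitm3 (315, 380.3 and 233 CPM). Rsad2 had 3.31, 1.55 and 1.66 CPM, Iigp1 1.62, 3.895 and 1.51 CPM, Ifi27 99.2, 121 and 82.2 CPM and Mx1 0.423, 0.247 and 0.151 CPM. Irgm1 was the gene with all KO libraries above all late WT libraries, which was so in 6.9% of all genes, at 72.1, 59.98, 60.5 and 78.7 CPM in WT and 99.5, 89.4 and 85.99 CPM in KO MEFs, and did not pass (log2 0.43 ± 0.23, FDR 0.553). The median difference was -0.474 without KO replicate 2 and -0.0746 without KO replicate 3. Y-linked transcripts, which mark male embryos, were present in 1 of 4 late WT and 3 of 3 late KO libraries, and with their level as a covariate the median was -0.0944 and again 0 genes passed.

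To ask the same for loss of both kinases, late DKO MEFs were compared with late WT MEFs of their set. These comparisons and those of passage share the late WT libraries, so a late WT level that is high or low enters both. Of the 42 genes tested 1 was higher and 2 were lower, while 0.821% of all genes tested were higher and 3.95% lower. The median difference was -0.14, against -0.0055 over all genes, and 8 genes had an unadjusted P below 0.05, as did 18.4% of all genes. In 7 genes all DKO libraries lay below all late WT libraries, as in 10.5% of all genes. They were Oas2, Oasl1, Dhx58, Parp14, Trim30a, Igtp and Sp100, and DESeq2 also called Oas2 and Dhx58 lower. Oasl1 held at most 2 counts in late WT and 1 in DKO libraries, all under the floor, so its order there carries no weight. Oas2 held 6 to 21 counts in late WT and 0 to 3 in DKO libraries, the latter at or under the floor. Stat2 had 14.3, 17.7 and 18.5 CPM, Irf9 19.4, 25.8 and 20.2 CPM, Irf7 2.82, 1.79 and 3.15 CPM and Irf1 16.4, 20.4 and 22.4 CPM in the 3 DKO libraries. Ifit1 had 14.5, 25.5 and 13.97 CPM, Isg15 13.2, 18.4 and 11.3 CPM, Usp18 3.16, 4.901 and 3.46 CPM and Iigp1 0.498, 2.54 and 1.67 CPM. Each of these 8 genes overlapped between DKO and late WT MEFs, and none passed. Overlap was also seen for Ddx58 (28.4, 28.8 and 42.3 CPM), Oasl2 (2.16, 2.64 and 3.09 CPM), Gbp2 (7.73, 6.598 and 8.53 CPM), Xaf1 (4.901, 5.84 and 5.13 CPM), Ifit3 (16.9, 19.2 and 22.4 CPM), Ifitm3 (393, 468 and 294 CPM), Bst2 (98.2, 121 and 68.4 CPM), Rsad2 (0.498, 0.754 and 0.494 CPM) and Ifi27 (101, 144 and 68.2 CPM). Mx1 had 0 counts in all 3 DKO libraries, and late WT MEFs were themselves near the floor.

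The 3 genes that passed in DKO MEFs differed in their course over passage. Ifitm1 had 2.55, 2.58, 1.56 and 1.32 CPM in early WT, 0.668, 0.968, 0.217 and 0.636 CPM in late WT and 2.41, 2.73 and 1.61 CPM in late DKO MEFs, so that all DKO libraries lay above all late WT libraries and within or near the early WT range (log2 1.83 ± 0.46, FDR 0.0413 against late WT). Sp100 had 1.93, 1.96, 3.58 and 3.104 CPM in early WT, 6.798, 6.71, 4.35 and 3.63 CPM in late WT and 1.99, 0.471 and 0.989 CPM in late DKO MEFs, the DKO libraries being below all late WT libraries (log2 -2.21 ± 0.45, FDR 0.0178). Trim30a had 10.3, 7.67, 12.4 and 8.78, 14.8, 14.04, 15.7 and 11.5 and 7.14, 7.35 and 4.697 CPM in the same order, again with DKO MEFs lowest (log2 -1.13 ± 0.22, FDR 0.0156). Within the S6K1 set late KO MEFs had 0.775, 0.495 and 0.907 CPM of Ifitm1, 3.73, 6.12 and 2.796 CPM of Sp100 and 11.6, 15.4 and 7.56 CPM of Trim30a, which overlapped with late WT MEFs for each. The call of Ifitm1 was the least stable. It was lost in 9 of the 11 fits that left out 1 library, with an FDR of 0.152 without DKO replicate 2. Late WT replicate 3 held 3 counts of Ifitm1, which is the floor. Y-linked transcripts were present in 3 of 4 late WT and 1 of 3 late DKO libraries. With their level as a covariate Ifitm1 was lost (FDR 0.0558), and Sp100 and Trim30a were kept. Trim30a and Sp100 were both lost without DKO replicate 2 (FDR 0.0636 and 0.09) and without DKO replicate 3 (0.0698 and 0.0835), and Sp100 also without late WT replicate 2 (0.0501). The macrophage markers were lower in DKO than in late WT MEFs, at 983.7 to 3574 against 7779 to 13380 CPM, and their part in the differences of Sp100 and Trim30a was not tested. Tests of the difference between the genotype effects of the sets passed in 0 of 43 genes with edgeR and with DESeq2, with 5 at an unadjusted P below 0.05, against 10.9% of all genes, and 0.00672% of all genes passed. The 3 smallest P values were those of Ifitm1 (log2 2.29 ± 0.65, FDR 0.284), Irf1 (log2 0.96 ± 0.34, FDR 0.334) and Sp100 (log2 -1.63 ± 0.63, FDR 0.367), each as S6K1/S6K2 set minus S6K1 set.

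**Figure D5:**
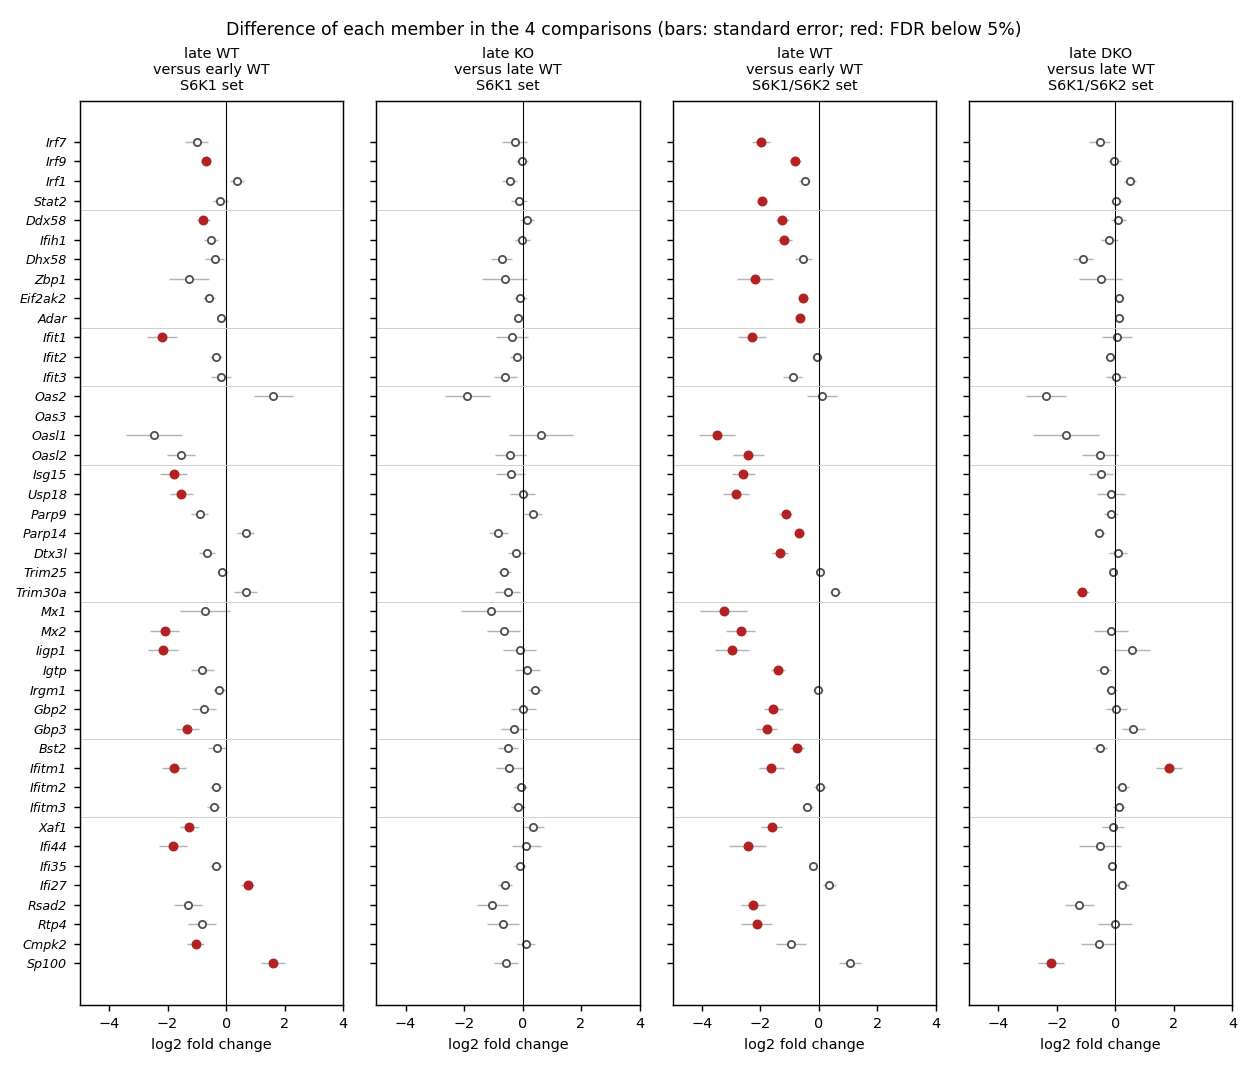
Log2 fold change (x axis) of each interferon-stimulated gene (rows, ordered by role) in the 4 comparisons, with standard errors as bars and red points where the FDR was below 5%. Oas3 was not tested and Mx1 is left out of the DKO panel because its DKO libraries had 0 counts, and 12, 0, 28 and 2 red points lie below 0 in the panels from left to right.

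The genes upstream in the pathway gave a mixed picture. Of 32 ligands, receptors, kinases, factors and inhibitors, 24 could be tested in the S6K1 set and 25 in the S6K1/S6K2 set, and the interferon genes Ifnb1, Ifna2, Ifna4, Ifng, Ifnk, Ifnl2 and Ifnl3 were too low to test. With passage 5 rose in the S6K1 set and 4 in the S6K1/S6K2 set, while 6.96% and 8.28% of all genes rose. The median differences of these upstream genes were -0.022 and 0.00014. The receptor genes Ifnar1 and Ifnar2 were at 53.6 ± 7.11 and 47.8 ± 4.81 CPM in early WT and 51.97 ± 7.63 and 41.6 ± 3.77 CPM in late WT MEFs of the S6K1/S6K2 set and did not pass. Sting1, the adaptor of cytosolic DNA sensing, fell in that set (log2 -1.01 ± 0.16, FDR 0.00203). Socs3, a feedback inhibitor, fell in the S6K1 set (log2 -1.25 ± 0.36, FDR 0.0383). Genes that rose in both sets were Irf5 (log2 2.74 ± 0.25, FDR 4.27e-05 and log2 2.24 ± 0.32, FDR 0.00131), Irf8 (log2 2.36 ± 0.32, FDR 0.000551 and log2 2.49 ± 0.45, FDR 0.00512), Il10rb (log2 1.39 ± 0.20, FDR 0.000795 and log2 1.01 ± 0.13, FDR 0.000793) and Ifngr2 (log2 0.62 ± 0.13, FDR 0.00724 and log2 0.63 ± 0.14, FDR 0.0119), and Tbk1 rose in the S6K1 set (log2 0.45 ± 0.13, FDR 0.039). Irf5 and Irf8 are factors of macrophages and other immune cells, and they were higher where the macrophage markers were, whose part was not tested. In KO MEFs none of the 24 passed with edgeR, 0 with DESeq2, and 2 had an unadjusted P below 0.05, against 10.6% of all genes. In DKO MEFs Irf5 (log2 -1.77 ± 0.35, FDR 0.0156), Irf8 (log2 -2.21 ± 0.50, FDR 0.0295) and Il10rb (log2 -0.61 ± 0.14, FDR 0.0271) were lower than in late WT MEFs. That is 3 of the 25 tested, while 3.95% of all genes were lower.

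A further 38 interferon-induced genes were looked at beside the 43. With passage 9 of 33 tested fell and 0 rose in the S6K1/S6K2 set (0 rose with DESeq2), while 4.89% of all genes fell and 8.28% rose. There 2 were higher and 16 lower at an unadjusted P below 0.05, against 31% of all genes in either direction. In the S6K1 set 2 of 35 fell and 1 rose, while 5.97% of all genes fell and 6.96% rose. The median differences of the further genes were -0.50 in the S6K1/S6K2 set and -0.066 in the S6K1 set. Gbp7 and Cxcl10, the chemokine that attracts T cells, fell in both sets, Cxcl10 from 9.804 ± 4.73 to 2.07 ± 0.618 CPM in the S6K1 set (log2 -2.24 ± 0.38, FDR 0.00259) and from 5.63 ± 2.38 to 1.902 ± 0.864 CPM in the S6K1/S6K2 set (log2 -1.52 ± 0.40, FDR 0.0287). In KO MEFs 0 of 35 passed with edgeR, 1 with DESeq2, and 3 had an unadjusted P below 0.05, against 10.6% of all genes. In DKO MEFs 4 of 33 were lower than in late WT MEFs, while 3.95% of all genes were lower. The 4 were Slfn2 (log2 -2.07 ± 0.34, FDR 0.00793), the immunoproteasome gene Psmb8 (log2 -1.36 ± 0.22, FDR 0.007), Oas1a (log2 -2.79 ± 0.57, FDR 0.0185) and Gbp9 (log2 -1.72 ± 0.43, FDR 0.0429). The macrophage markers were lower in DKO MEFs as well, and their part in these differences was not tested. Of the 43 genes, those with a promoter window and a fall with passage in the S6K1/S6K2 set held an ISRE-like match in 13 of 20, and the other genes with a window in 7 of 12.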

How the data were processed

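RNA-seq of 22 MEF libraries in 6 groups was analysed, each library being 1 replicate as labelled. The deposited values are raw counts of reads per gene identifier, not normalized. The study's methods describe stranded mRNA libraries, single-end reads, CASAVA, TopHat mapping to mm9 and HTSeq counting, whereas the submitters' processing notes name CASAVA, STAR 2.7.1a, DESeq2 1.28.1 and mm10. Of 55401 identifiers, 22812 (41.2%) are absent from an mm9 annotation (GENCODE vM1). Gene coordinates were therefore not used, apart from RefSeq promoters, and the strand setting is not given in the sources used here. Symbols matched 32589 identifiers with 96.98% of the counts. Ifi27 was matched through an older symbol, and Gbp10 and Helz2 of the further list were not matched.

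Counts were tested in R 4.3.3 with edgeR 4.0.16 (filterByExpr, TMM, robust quasi-likelihood F test, 2-sided, Benjamini-Hochberg over all genes tested, threshold 0.05) with the 3 groups of each set modelled jointly, and interactions over all 22 libraries. SE is the absolute log2 fold change divided by the square root of F. Correlations used log2 CPM with a prior count of 2. The scripts were tested on simulated counts. Alternatives were DESeq2 1.42.0, RLE scaling, no filter, other samples in the fit, a covariate of Y-linked genes and leaving out each library. All 30 pairs of libraries of 1 group differed by more than sampling noise (chi-square per degree of freedom 20.6 to 265.7). Total counts were 10742454 to 17314832, and the floor of 3 counts covers counting error only. P values measure the spread between libraries, whose independence is not stated for each.

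The genes, the lists and the tests were chosen with earlier results of these data known. Named genes were 18 with levels in every library, up to 10 per comparison that passed by smallest P value, the 3 smallest where none passed, and the rest by count or mean. The genes whose promoters are printed were chosen after their values were seen. For the pathway list, 1 gene is not reported here.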

Additional observations from a re-analysis of the deposited data

Results flagged for a closer look

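Of the 172 groups of 4 libraries examined gene by gene, 11 (6.4%) had a highest or lowest library set apart. The limit was Dixon's 95% limit of 0.829 of the group's range, which about 1 in 20 groups of independent, normally distributed values exceed. The genes varied together (median r 0.531) and CPM were not put on a log scale, so the 6.4% cannot be read against that rate. In early WT MEFs of the S6K1 set, Ifitm1 had 6.018 CPM in replicate 1 against at most 2.658 in the others, and Iigp1 had 20.56 CPM in replicate 2 against at most 8.423. In late WT MEFs of that set Gbp3 had 2.552 CPM in replicate 3 against at least 6.7. In early WT MEFs of the S6K1/S6K2 set Oas2 had 1.172 CPM in replicate 3 against at most 0.6749.

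In late WT MEFs of the S6K1/S6K2 set replicate 1 stood above the others in 5 genes. It had 9.044 CPM of Dtx3l against at most 4.901, 6.009 CPM of Ifi44 against at most 1.146, 2.064 CPM of Iigp1 against at most 0.7608, 1.457 CPM of Mx2 against at most 0.5533 and 20.94 CPM of Parp9 against at most 12.6. In the same group Ifitm2 had 99.41 CPM in replicate 4 against at least 158.8, and Trim25 had 52.71 CPM in replicate 2 against at most 40.61.

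The passage effect on Stat2 differed between the sets by -1.773 on the log2 scale by a test of the interaction, as described above.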

How the results depend on the processing

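None of the genes that passed a comparison, or had its 3 smallest P values where none passed, changed direction under an alternative in which it could be tested. Other genes were not followed one by one. In late versus early WT MEFs of the S6K1 set, 1 gene rather than 2 was higher with the covariate of Y-linked genes and in a fit on the 2 groups compared (Sp100 was kept and Ifi27 lost). In the S6K1/S6K2 set 1 rather than 0 was higher with DESeq2 and in the fit on 2 groups (Sp100). In DKO MEFs 0 rather than 1 was higher with the Y-linked covariate and in the fit on 2 groups, and 4 rather than 2 were lower with DESeq2 and 1 in the fit on all 6 groups. DESeq2 gave 2 rather than 1 for the passage interaction. The cause was not tested. Leaving out 1 library at a time gave 0 to 2 genes higher and 2 to 16 lower in the passage comparison of the S6K1 set, 0 and 18 to 30 in that of the S6K1/S6K2 set, 0 and 0 in KO MEFs, and 0 to 1 and 0 to 3 in DKO MEFs. It gave 0 higher and 1 to 2 lower for the passage interaction and 0 for the genotype interaction. Medians ranged from -0.876 to -0.509, -1.4 to -1.07, -0.474 to -0.0746 and -0.215 to 0.147 in the same order, and from -0.874 to -0.401 and -0.247 to 0.266 for the interactions. Without a filter on low counts 8 rather than 12 genes were lower with passage in the S6K1 set. Over all genes, the count in KO MEFs was 6, against 266 with DESeq2, 43 with no filter, 38 with the Y-linked covariate and 16 in the fit on all 6 groups, and in DKO MEFs 686 against 1206 with DESeq2. With passage it was 1827 against 3267 with the Y-linked covariate in the S6K1 set, and 1892 against 2845 with DESeq2 in the S6K1/S6K2 set. The passage interaction gave 106 against 222 with DESeq2, and the genotype interaction 1 against 65 with DESeq2 and 3 with no filter. The study took RNA of serially passaged MEFs at passage 3 and at passage 8, so some early and late WT libraries may come from the same embryos. No paired analysis was possible because the labels carry no replicate numbers shared between groups, and the tests treat the libraries as independent. Depth limits Mx1, Oas2, Oas3 and Oasl1, each with 5 or more libraries at or under 3 counts, and Cmpk2, Ifitm1, Mx2 and Zbp1, each with 1.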
